A study of Mus musculus with 12 samples.

Results

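The 10 genes of the Notch pathway described here were measured in cultured mouse neural progenitor cells (mNPCs): the receptors Notch1, Notch2 and Notch3, the ligands Dll1, Dll3 and Jag1, and the HES and HEY family targets Hes1, Hes5, Hey1 and Heyl. They were taken by name from the 18911 genes of the deposited table, whose Ensembl identifiers were matched to GRCm38 symbols, and all 10 members passed the filter on low counts that left 17076 genes to test. The progenitors came from the hippocampus of newborn pups and were sequenced as poly-A RNA in 12 libraries, 3 for each of 4 genotypes. Kmt2a+/+ cells carried wild-type Kmt2a, which encodes a histone H3K4 methyltransferase, and no Cre. Kmt2a+/LSL cells carried on one allele a loxP-flanked stop cassette in intron 1, which ends the transcript early. Nes-Cre+/- Kmt2a+/LSL cells carried the same cassette and one copy of a Cre transgene driven by the nestin promoter, which removes the cassette in the nervous system before birth. Nes-Cre+/- Kmt2a+/+ cells carried the Cre alone; their genotype tag names only the transgene, and their title gives the wild-type Kmt2a. All groups were cultures grown with FGF-2 and EGF, so that the cells were no longer in contact with the tissue that surrounds them in the pup. No label says whether the libraries of a genotype came from separate pups, and p-values measure only the spread between these libraries.

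Notch receptors span the membrane and are activated by ligands on a neighboring cell. Cleavage by ADAM proteases and then by γ-secretase frees the intracellular domain, which joins RBPJ and MAML proteins on DNA and switches on HES and HEY genes, repressors of the proneural factors. In the developing hippocampus and other parts of the brain, this signaling holds progenitors back from becoming neurons and later favors glia.

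The promoters of 2 members are shown because they hold the letters of motifs known to be bound by factors of the pathway. RefSeq promoter sequences (GRCm38.p6) were found for 7 members and none for Hes1, Hey1 and Heyl. Both strands of the 250 bases before each start were searched for the RBPJ core (TGGGAA or TTCCCA), for the class C site of HES and HEY proteins (CACGCG or CGCGTG), for 2 related sites (CACGAG or CTCGTG, and CACGTG) and for the N-box (CACNAG or CTNGTG, which includes CACGAG). Capitals mark the RBPJ core in the first sequence, on the plus strand at chr4:154960673-154960922, and the class C site in the second, on the minus strand at chr17:15376933-15377182.
Hes5: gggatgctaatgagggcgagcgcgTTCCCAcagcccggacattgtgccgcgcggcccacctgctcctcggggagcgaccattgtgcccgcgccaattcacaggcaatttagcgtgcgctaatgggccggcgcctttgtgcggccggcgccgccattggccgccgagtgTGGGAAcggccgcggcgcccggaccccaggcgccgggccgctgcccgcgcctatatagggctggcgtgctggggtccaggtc
Dll1: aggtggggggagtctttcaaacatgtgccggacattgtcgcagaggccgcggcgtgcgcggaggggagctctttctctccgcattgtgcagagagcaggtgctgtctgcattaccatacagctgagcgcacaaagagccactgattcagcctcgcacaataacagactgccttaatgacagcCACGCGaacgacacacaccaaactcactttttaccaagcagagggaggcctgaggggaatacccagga

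Among the 7 members, the RBPJ core was found only in the Hes5 promoter, with matches that start 226 and 82 bases before the transcription start. Of 32851 RefSeq promoters, 21.6% held at least 1 such match and 2.77% held 2 or more. The class C site was found once in Dll1, 68 bases before the start, once in Notch2, 42 bases before it, and in Jag1 at 171 and 249 bases before it, against 7.62% of all promoters with at least 1 and 1.27% with 2 or more. CACGAG was found in Notch3, 204 bases before the start, against 5.37% of promoters, and CACGTG in none of the 7. The N-box was found in Notch1, Notch2 and Notch3, against 36.7% of promoters. The Dll1 match lay in the promoter printed above, and a further RefSeq promoter of Dll1, at chr17:15375824-15376073, held none of these motifs. These are matches of letters and not measured binding sites.

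Library totals ran from 18280008 to 28596919 estimated counts. Levels are given as CPM, that is, counts relative to library size, with library sizes scaled by the TMM method. Kmt2a itself had a mean of 290 ± 9.93 CPM (SD, n = 3) in Kmt2a+/+ and 166 ± 0.392 CPM with the cassette and no Cre. In the genotypes with Cre it had 297 ± 13.7 CPM on the wild-type background and 272 ± 12.7 CPM on the Kmt2a+/LSL background. All 3 Kmt2a+/LSL libraries lay below the other 9 for this gene, as their label says. This drop amounted to a log2 fold change of -0.80 ± 0.13 (SE) for Kmt2a, with an adjusted p of 0.281 in edgeR and 6.09e-18 in DESeq2. Of the 6 progenitor markers, Fabp7 had 2430 to 8960 CPM, Vim 1720 to 2864 CPM, Nes 316 to 758 CPM and Sox2 226 to 387 CPM. Msi1, at 19.2 to 107 CPM, and Pax6, at 35.4 to 52.6 CPM, were lower. The 6 progenitor markers summed to 5264 to 12720 CPM, most of it Fabp7 and Vim. The 6 neuron markers summed to 1016 to 1917 CPM, nearly all of it Map2 (980 to 1874 CPM). The astrocyte markers (6 of 6 measured) summed to 1160 to 3281 CPM and the oligodendrocyte lineage markers (6 of 6) to 494 to 1416 CPM. Of the microglia markers, 3 of 6 passed the filter and summed to at most 1.73 CPM, and of the endothelial markers 3 of 5 passed and summed to at most 14.02 CPM. Mural and fibroblast markers (7 of 7) summed to 24.7 to 230.0 CPM, most of it Cspg4, which oligodendrocyte precursors also express. One library stood apart. Kmt2a+/+ replicate 1 had a median correlation of 0.903 with the other libraries of its genotype (log2 CPM over all genes tested), against 0.939 to 0.984 in the 11 others, and it was the lowest of 12 libraries for 34.1% of genes and the highest for 30%. Among the members it was the lowest for 7 of 10 and the highest for 0. In bulk RNA, fewer cells of a type and less RNA per cell cannot be told apart.

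**Figure D1:**
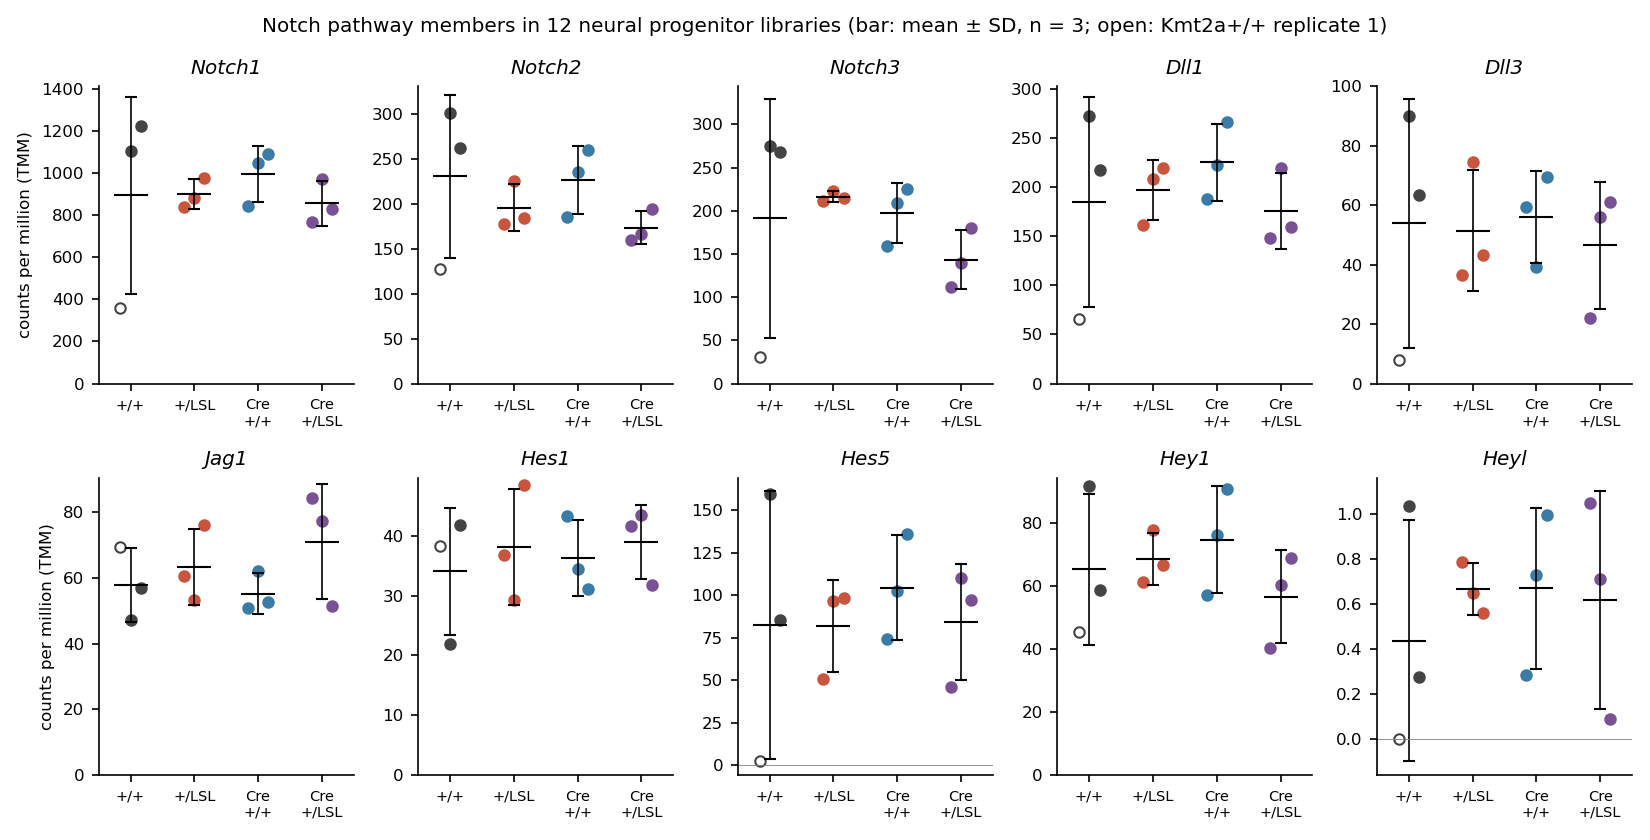
Level of each member in CPM (y axes, linear) in every library of the 4 genotypes (x axes; Cre stands for Nes-Cre+/-), with the mean and SD of 3 libraries as the horizontal line and bar. The open circle is Kmt2a+/+ replicate 1, which lies below every other library for Notch1, Notch2, Notch3, Dll1, Dll3, Hes5 and Heyl.

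Notch1 (ENSMUSG00000026923, minus strand of chr2:26457903-26516663) was the most abundant receptor in these progenitors. It had 359, 1106 and 1223 CPM in Kmt2a+/+ replicates 1, 2 and 3, and 839, 883 and 980 CPM in Kmt2a+/LSL. With Cre it had 847, 1051 and 1093 CPM in Nes-Cre+/- Kmt2a+/+ and 767, 975 and 828 CPM in Nes-Cre+/- Kmt2a+/LSL. Apart from the first library, every value lay between 767 and 1223 CPM, a 1.59-fold range, and the genotypes overlapped.

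Notch2 (ENSMUSG00000027878, plus strand of chr3:98013527-98150361) had 128, 301 and 262 CPM in Kmt2a+/+ and 178, 226 and 184 CPM in Kmt2a+/LSL. It had 185, 235 and 260 CPM in Nes-Cre+/- Kmt2a+/+ and 160, 167 and 194 CPM in Nes-Cre+/- Kmt2a+/LSL. The last genotype held the lowest mean, 173 ± 18.4 CPM, and its values overlapped those of each other genotype.

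Notch3 (ENSMUSG00000038146, minus strand of chr17:32120820-32166852) differed most between libraries among the receptors. It had 31.2, 275 and 268 CPM in Kmt2a+/+ and a narrow 211, 223 and 215 CPM in Kmt2a+/LSL. It had 159, 209 and 225 CPM in Nes-Cre+/- Kmt2a+/+ and 112, 139 and 180 CPM in Nes-Cre+/- Kmt2a+/LSL. All 3 libraries of Nes-Cre+/- Kmt2a+/LSL lay below all 3 of Kmt2a+/LSL, and this was the single case without overlap among 40 comparisons of a member between 2 genotypes. Of all genes, 4.05% had no overlap between Kmt2a+/LSL and Kmt2a+/+, 7.1% between Kmt2a+/LSL with and without Cre, 6.68% between the 2 genotypes with Cre and 4.35% between the 2 with wild-type Kmt2a.

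Of the ligands, Dll1 (ENSMUSG00000014773, minus strand of chr17:15367354-15376872), which activates receptors on neighboring cells, had 66.0, 272 and 217 CPM in Kmt2a+/+ and 162, 209 and 219 CPM in Kmt2a+/LSL. It had 188, 223 and 267 CPM in Nes-Cre+/- Kmt2a+/+ and 149, 220 and 159 CPM in Nes-Cre+/- Kmt2a+/LSL. Here too the genotypes overlapped, and the lowest value was that of Kmt2a+/+ replicate 1.

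Dll3 (ENSMUSG00000003436, minus strand of chr7:28293553-28302238), a divergent ligand that acts mostly inside the cell and does not activate receptors, had 8.03, 90.05 and 63.5 CPM in Kmt2a+/+ and 36.5, 74.5 and 43.1 CPM in Kmt2a+/LSL. It had 59.2, 39.2 and 69.4 CPM in Nes-Cre+/- Kmt2a+/+ and 22.1, 56.1 and 61.2 CPM in Nes-Cre+/- Kmt2a+/LSL. Its values ranged over 4.07-fold even without the lowest library.

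Jag1 (ENSMUSG00000027276, minus strand of chr2:137081456-137116644), a ligand of the Serrate type, did not share this pattern. It had 69.5, 47.15 and 56.85 CPM in Kmt2a+/+ and 60.7, 53.4 and 76.2 CPM in Kmt2a+/LSL. It had 50.8, 62.3 and 52.6 CPM in Nes-Cre+/- Kmt2a+/+ and 84.5, 77.4 and 51.4 CPM in Nes-Cre+/- Kmt2a+/LSL. Kmt2a+/+ replicate 1 was within the range of the others, and the highest value was in Nes-Cre+/- Kmt2a+/LSL replicate 1.

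The targets differed from each other. Hes1 (ENSMUSG00000022528, plus strand of chr16:30064384-30067796), a repressor that many pathways besides Notch can raise, had 38.4, 22.0 and 41.8 CPM in Kmt2a+/+ and 36.7, 29.2 and 48.4 CPM in Kmt2a+/LSL. It had 43.4, 34.4 and 31.1 CPM in Nes-Cre+/- Kmt2a+/+ and 41.6, 43.5 and 31.8 CPM in Nes-Cre+/- Kmt2a+/LSL. Its values spanned 2.20-fold in all, with overlap in each pair of genotypes.

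Hes5 (ENSMUSG00000048001, plus strand of chr4:154960923-154962371), the target that in neural progenitors depends most on Notch, had the widest range over all 12 libraries of the abundant members. It had 2.14, 159.5 and 85.6 CPM in Kmt2a+/+ and 50.5, 96.8 and 98.5 CPM in Kmt2a+/LSL. It had 74.35, 102 and 136 CPM in Nes-Cre+/- Kmt2a+/+ and 45.8, 110 and 97.1 CPM in Nes-Cre+/- Kmt2a+/LSL. The value of Kmt2a+/+ replicate 1 rests on 36 estimated counts, while replicate 2 of the same genotype held the highest value of all 12.

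Hey1 (ENSMUSG00000040289, minus strand of chr3:8663359-8667256), a HES-related repressor, had 45.4, 91.9 and 58.7 CPM in Kmt2a+/+ and 61.3, 77.7 and 66.8 CPM in Kmt2a+/LSL. It had 57.0, 76.4 and 90.8 CPM in Nes-Cre+/- Kmt2a+/+ and 40.4, 60.5 and 69.1 CPM in Nes-Cre+/- Kmt2a+/LSL. Heyl (ENSMUSG00000032744, plus strand of chr4:123233556-123249875), which is known better from vessels and muscle, was barely detected, with 0 to 1.05 CPM over the 12 libraries. Its value of 0 in Kmt2a+/+ replicate 1 allows up to 0.178 CPM (3 counts, counting error only).

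Compared per kb of exon, as mean CPM per kb over the 12 libraries, Hes5 (64.8) and Notch1 (64.1) stood highest and Dll1 (46.4) followed. Notch3 (23.1), Hey1 (20.3), Notch2 (19.2), Dll3 (18.2) and Hes1 (18.1) formed a group, below which came Jag1 (10.6) and, far lower, Heyl (0.117). Parts of 5 members share sequence with overlapping genes. For Notch2 that gene, Gm42820, lies on the same strand, so strand handling would not separate them. For Hes5, Dll1, Notch1 and Notch3 the overlapping genes lie on the opposite strand, and the strand handling of these data is not stated. The share of a member's 31-base words that also occur in another gene was 25.7% for Hes5 (mostly its antisense neighbor Gm20421), 17.9% for Dll1 (A930024N18Rik), 9.40% for Notch1, 6.59% for Notch3 and 4.28% for Notch2.

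With all 12 libraries, no member passed a test of a difference among the 4 genotypes. In edgeR's quasi-likelihood test of any difference among the genotypes, 0 of 10 members passed an adjusted p of 0.05, where 0% of the 17076 genes were called, and 0 members had an unadjusted p under 0.05, where 1.15% of genes had one. DESeq2 on the same 12 libraries also called 0 members, against 0.0293% of genes, and it called 0 members in each comparison of genotypes. An exact permutation test over the 15400 divisions of the libraries into 4 sets of 3 (one-sided in the between-genotype sum of squares) gave p = 0.493 for Jag1, the lowest of the members, 0.605 for Hey1, 0.612 for Notch2, 0.887 for Notch3 and 0.977 for Dll3, the highest. When the genotypes were ordered by mean CPM, neighbors in that order overlapped for each of the 10 members. Nes-Cre+/- Kmt2a+/LSL had the lowest mean for Notch1, Notch2, Notch3, Dll1, Dll3 and Hey1 and the highest for Jag1 and Hes1.

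**Figure D2:**
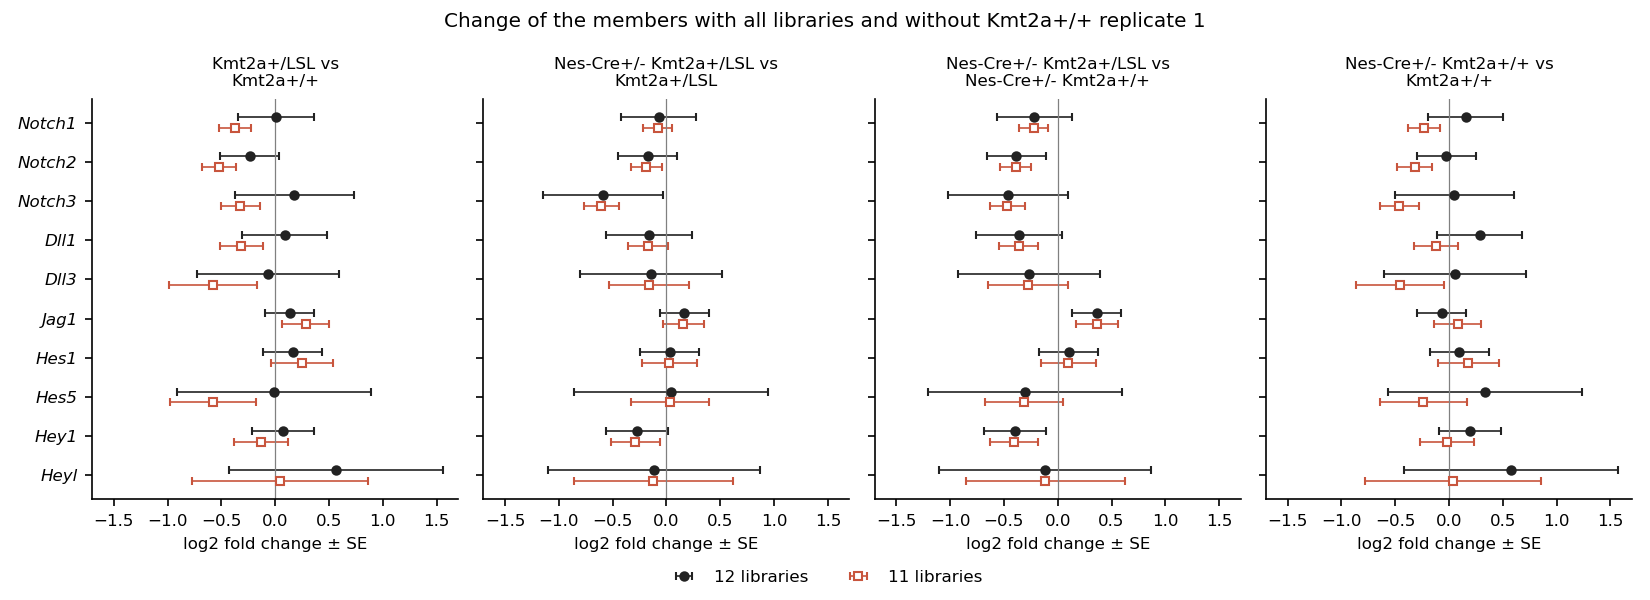
Log2 fold change ± SE from edgeR (x axes) of each member (y axis) in the 4 comparisons of 2 genotypes, with all 12 libraries (filled circles) and without Kmt2a+/+ replicate 1 (open squares). In both comparisons with Kmt2a+/+, the values of Notch1, Notch3, Dll1 and Hey1 lie on opposite sides of 0 in the 2 fits, and without that library the error bars of the receptors are shorter in each panel.

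The comparison of Kmt2a+/LSL with Kmt2a+/+ asks what the loss of one functional Kmt2a allele does. The members had a median log2 fold change of 0.08, against 0.00 over all genes tested, with 7 above and 3 below 0, as were 49.9% of all genes. Of the members 0 were called by edgeR (0% of genes) and 0 had an unadjusted p under 0.05 (1.79% of genes), and DESeq2 called 0 (0.041% of genes). Single values were 0.01 ± 0.35 (SE) for Notch1, -0.24 ± 0.27 for Notch2, 0.18 ± 0.56 for Notch3, 0.09 ± 0.40 for Dll1, 0.13 ± 0.23 for Jag1 and -0.01 ± 0.90 for Hes5, each with an adjusted p of 1.0. The signs turned with single libraries. Of the 10 members, 4 changed sign without Kmt2a+/+ replicate 1, 4 without Kmt2a+/+ replicate 2 (Hes5 was then at 0.90 and Dll3 at 0.52), 4 without Kmt2a+/LSL replicate 3, 3 without Kmt2a+/+ replicate 3, 2 without Kmt2a+/LSL replicate 1 and 1 without Kmt2a+/LSL replicate 2. Without Kmt2a+/+ replicate 1, the median was -0.32 and 7 of 10 members were below 0, with Notch1 at -0.37 ± 0.15, Notch2 at -0.52 ± 0.16, Notch3 at -0.32 ± 0.18, Dll3 at -0.58 and Hes5 at -0.58. In that edgeR fit of 11 libraries, Notch2 had an unadjusted p of 0.00697 and Notch1 one of 0.0285, where 8.95% of genes had one under 0.05. Both had an edgeR adjusted p of 0.551, and 0 members were called, against 0.0118% of genes. The 3 receptors then had every Kmt2a+/LSL library below both remaining Kmt2a+/+ libraries, where 14% of genes had the same. Of all 10 members, 3 did not overlap on the lower side and 0 on the higher side. In either direction, 28.8% of genes did not overlap. Jag1 (0.28) and Hes1 (0.25) were above 0. In the same 11 libraries, the astrocyte markers were below 0 for 4 of 6 (median -0.25, with 1 not overlapping), the oligodendrocyte lineage markers for 5 of 6 (median -0.09) and the progenitor markers for 4 of 6 (median -0.06, with 2 not overlapping), and the neuron markers were above 0 for 4 of 6 (median 0.20), while 1 did not overlap on the lower side. Of these markers, 1 (a progenitor marker) had an unadjusted edgeR p under 0.05. Their part in the values of the members was not tested.

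What the removal of the cassette restores is asked by setting Nes-Cre+/- Kmt2a+/LSL against the same allele without Cre. Of the members 0 were called by edgeR (0% of genes), none had an unadjusted p under 0.05 (1.61% of genes), the median log2 fold change was -0.13, and 7 of 10 were below 0, as were 49.6% of all genes. Notch3 had the largest value, -0.59 ± 0.56 (edgeR adjusted p of 1.0), and its libraries did not overlap, as in 7.1% of genes. DESeq2 also called 0 members, against 0.041% of genes. Most glial markers were also below 0 in the same comparison, with 0 called by edgeR. Of the 6 astrocyte markers, 5 were below 0 with a median of -0.40, and Gfap and Aqp4 did not overlap between the genotypes. Of the 6 oligodendrocyte lineage markers, 4 were below 0 with a median of -0.41, and Sox10 was among those that did not overlap; 1 of the 6 had an unadjusted edgeR p under 0.05, and 2 had one without Kmt2a+/+ replicate 1. Of the 6 progenitor markers, 4 were below 0 with a median of -0.08, and Msi1 did not overlap, at 49.5 to 74.7 against 76.9 to 84.8 CPM. The neuron markers were above 0 for 4 of 6, with a median of 0.20 and 1 that did not overlap. The part of these markers in the Notch3 value was not tested. The two-sided exact permutation test gave it p = 0.1, the smallest that 3 against 3 libraries allow. Without Kmt2a+/+ replicate 1, which takes no direct part in this comparison but enters the shared estimate of the spread, the value was -0.61 ± 0.16, with an unadjusted edgeR p of 0.00325 where 3.89% of genes had one under 0.05, and an adjusted p of 1.0, where 0.00589% of genes were called. Without Nes-Cre+/- Kmt2a+/LSL replicate 1 it was -0.44. The mean Notch3 level with Cre and the edited allele was 144 ± 34.1 CPM, and that of Kmt2a+/LSL was 216 ± 6.03 CPM. The Kmt2a+/+ mean of 191 CPM includes the 31.2 CPM of replicate 1, and its other libraries, at 275 and 268 CPM, lay above every Kmt2a+/LSL library. The values of Notch1 (-0.07), Hes1 (0.03) and Hes5 (0.04) were small beside their errors of 0.35, 0.27 and 0.90.

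Both genotypes of the next comparison, Nes-Cre+/- Kmt2a+/LSL against Nes-Cre+/- Kmt2a+/+, carried Cre and differed in the edited allele, and neither group holds the outlying library. Of the members 0 were called by edgeR (0% of genes) or by DESeq2 (0.0176% of genes), 0 had an unadjusted edgeR p under 0.05 (1.11% of genes), the median was -0.29 and 8 of 10 members were below 0, as were 49.1% of all genes. The receptors were at -0.22 ± 0.35 (Notch1), -0.39 ± 0.28 (Notch2) and -0.46 ± 0.56 (Notch3), Dll1 at -0.36 ± 0.40, Hey1 at -0.40 ± 0.29 and Hes5 at -0.31 ± 0.90. Jag1 was at 0.36 ± 0.23 and Hes1 at 0.10 ± 0.27. Every member had overlapping libraries. With 11 libraries in the edgeR fit, Notch3 had an unadjusted p of 0.0146 and Notch2 one of 0.0199, where 3.23% of genes had one under 0.05, and 0 members and 0% of genes were called. Without Nes-Cre+/- Kmt2a+/LSL replicate 1, Notch3 was at -0.31, Hey1 at -0.21, Hes5 at -0.01 and Dll3 at 0.07. The summed astrocyte markers lay at 1533 to 2188 CPM in Nes-Cre+/- Kmt2a+/LSL and at 1357 to 2535 CPM in Nes-Cre+/- Kmt2a+/+. Of these 6 markers, 4 had a log2 fold change below 0, from -1.77 for Aqp4 and -1.49 for Gfap to -0.16 for Gja1, and 2 were above it, S100b at 0.40, with no overlap between the genotypes, and Slc1a2 at 0.05. The oligodendrocyte lineage markers were below 0 for 5 of 6 (median -0.18) and the progenitor markers for 4 of 6 (median -0.10), with no overlap for Msi1 (49.5 to 74.7 against 84.3 to 103.6 CPM). The neuron markers were below 0 for 3 of 6 (median 0.01). With 11 libraries, 2 of the 6 astrocyte markers and 1 of the 6 progenitor markers had an unadjusted edgeR p under 0.05. For the oligodendrocyte lineage and the neuron markers this number was 0. Their part in the values of the members was not tested.

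Nes-Cre+/- Kmt2a+/+ against Kmt2a+/+ shows what the transgene alone goes with. Again 0 members were called by edgeR (0% of genes) or by DESeq2 (0.0176% of genes), and 0 had an unadjusted edgeR p under 0.05 (1.4% of genes). The median was 0.12 with 8 of 10 members above 0, where 48% of all genes were below, and it was -0.18 with 7 of 10 below 0 when Kmt2a+/+ replicate 1 was left out. Notch3, at 0.05 ± 0.56 with all libraries, was at -0.46 without that one, with an unadjusted edgeR p of 0.0258 where 6.09% of genes had one under 0.05, and 0 members and 0% of genes were called. The 3 receptors again had every library below both remaining Kmt2a+/+ libraries, as had 13.6% of genes. Of all 10 members, 3 did not overlap on the lower side and 0 on the higher side, where 29.3% of genes did not overlap in either direction. In the same 11 libraries the oligodendrocyte lineage markers were below 0 for 6 of 6 (median -0.29), the astrocyte markers for 5 of 6 (median -0.28, with 1 not overlapping) and the progenitor markers for 4 of 6 (median -0.08), and the neuron markers were above 0 for 5 of 6 (median 0.14), with 1 not overlapping on the higher and 1 on the lower side and 2 at an unadjusted edgeR p under 0.05. What these markers contribute to the members' values was not tested. The comparisons that share Kmt2a+/+ also share its outlying library.

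The difference between the effects of the allele with and without Cre was below 0 for 9 of 10 members, as it was for 50.2% of genes, with a median of -0.26. By edgeR 0 members were called for it (0% of genes), 0 had an unadjusted p under 0.05 (1.73% of genes), and DESeq2 called 0 (0.0586% of genes). Without Kmt2a+/+ replicate 1 it was below 0 for 5 of 10, with a median of 0.01, and edgeR gave 0 members an unadjusted p under 0.05 (3.31% of genes).

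Notch3 was the only member called in any fit, and both fits that called it left out libraries. DESeq2 without Kmt2a+/+ replicate 1, a fit chosen after the values were seen, gave Notch3 an adjusted p of 0.041 for any difference among the 4 genotypes, and 0.039 when Nes-Cre+/- Kmt2a+/LSL replicate 1 was left out as well, where 0.218% and 0.89% of genes were called. The adjusted p of Notch3 in this test ran from 0.039 to 1.0 over the alternatives. On the same 11 libraries edgeR gave it an unadjusted p of 0.00208, where 5.35% of genes had one under 0.05, and an adjusted p of 0.829, where 0.0177% of genes were called. In these 11 libraries Notch3 stood highest in Kmt2a+/+, at 275 and 268 CPM, and lowest in Nes-Cre+/- Kmt2a+/LSL.

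The distance of Kmt2a+/+ replicate 1 from the other libraries went with the GC content of the genes. Over 12375 genes with a mean log2 CPM above 0, the difference between this library and the median of the other 11 had a Spearman correlation of -0.764 with GC content (a description across genes, which are not independent). The median difference was 0.80 log2 units for genes of 40 to 45% GC and -1.41 for genes of 55 to 60%. Nes-Cre+/- Kmt2a+/LSL replicate 1 leaned the same way, with a correlation of -0.636, and Kmt2a+/+ replicate 3 the other way, with 0.717.

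The GC content of the members, as the mean over the annotated transcripts of each gene, ran from 48.9 to 63.9%. Jag1 (48.9% GC) differed by 0.29 log2 units, near the median of 0.18 for genes within 1 percentage point of its GC, and Notch1 (57.5%) by -1.44, near the median of -1.47. Hes5, the member richest in GC at 63.9%, differed by -5.45, where the median was -2.69 and 4 of 70 genes of like GC were lower. Hes1 (58.8%) differed by 0.06, where the median was -1.76 and 799 of 818 genes of like GC were lower. Dll3, with the same GC content of 58.8%, differed by -2.87. A fit with an offset for GC content left 0 members called, with Notch3 at -0.52 for the cassette's removal (Cre against no Cre). The cause of the difference of this library was not tested.

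**Figure D3:**
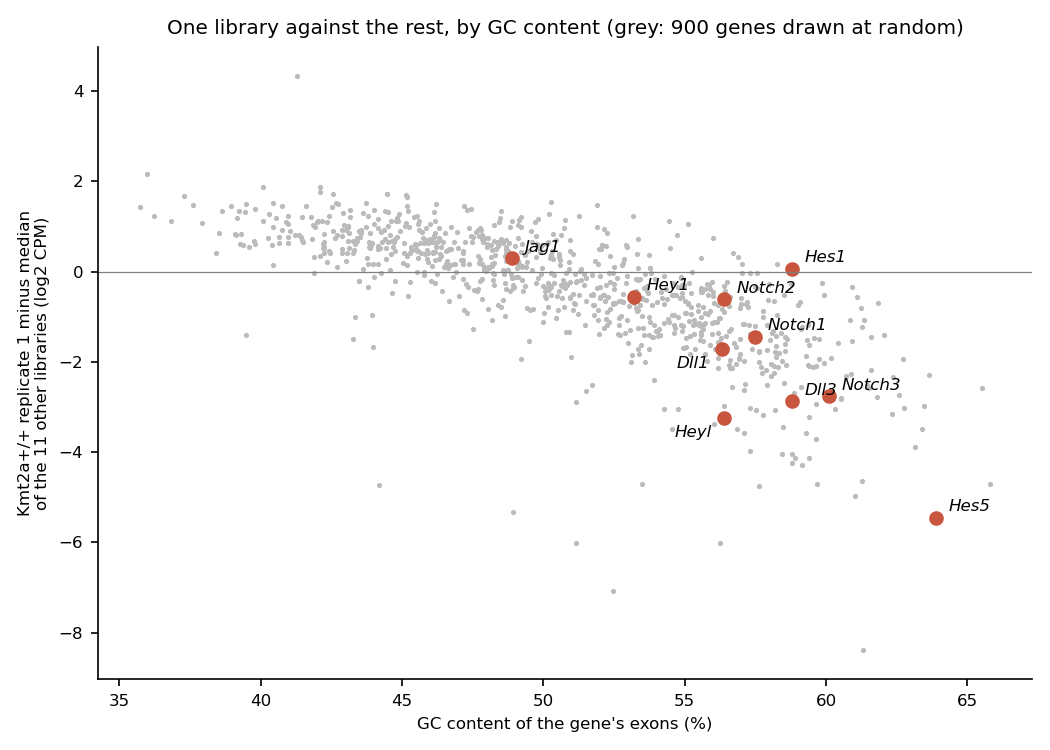
Difference of Kmt2a+/+ replicate 1 from the median of the 11 other libraries (y axis, log2 CPM) against the GC content of each gene (x axis, percent), for the members (red) and a random sample of other genes (gray). GC content, labeled there as that of exons, is the mean over the annotated transcripts of the gene. Values fall as GC content rises; Hes5, at 63.9% GC, lies at -5.45, and Hes1, at 58.8%, lies at 0.06.

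Over the libraries, the members fell into those that varied together and those that did not. With Kmt2a+/+ replicate 1 left out, the Pearson correlation of log2 CPM over the 11 remaining libraries was 0.869 between Dll1 and Hes5, 0.85 between Hes5 and Hey1, 0.843 between Notch1 and Dll1 and 0.836 between Notch2 and Notch3. Jag1 and Hes1 correlated with each other (0.688) and negatively with Notch2 (-0.693 and -0.70) and Hey1 (-0.653 and -0.716). These points share library depth and GC response, and the values are a description. Among 10628 genes with a mean of at least 5 CPM, the gene most like Notch1 over all 12 libraries was Pld3 (r = 0.993), and it was Gdpd2 for Notch2 (0.942), Rnf215 for Dll1 (0.99), Jph3 for Dll3 (0.975), Cdhr1 for Jag1 (0.915), Plxna2 for Hes1 (0.934), Hcfc1r1 for Hes5 (0.992), Nim1k for Hey1 (0.959) and Dock4 for Heyl (0.918). Without the outlying library Pld3, Cdhr1 and Plxna2 were still the most alike of all genes searched to their members.

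**Figure D4:**
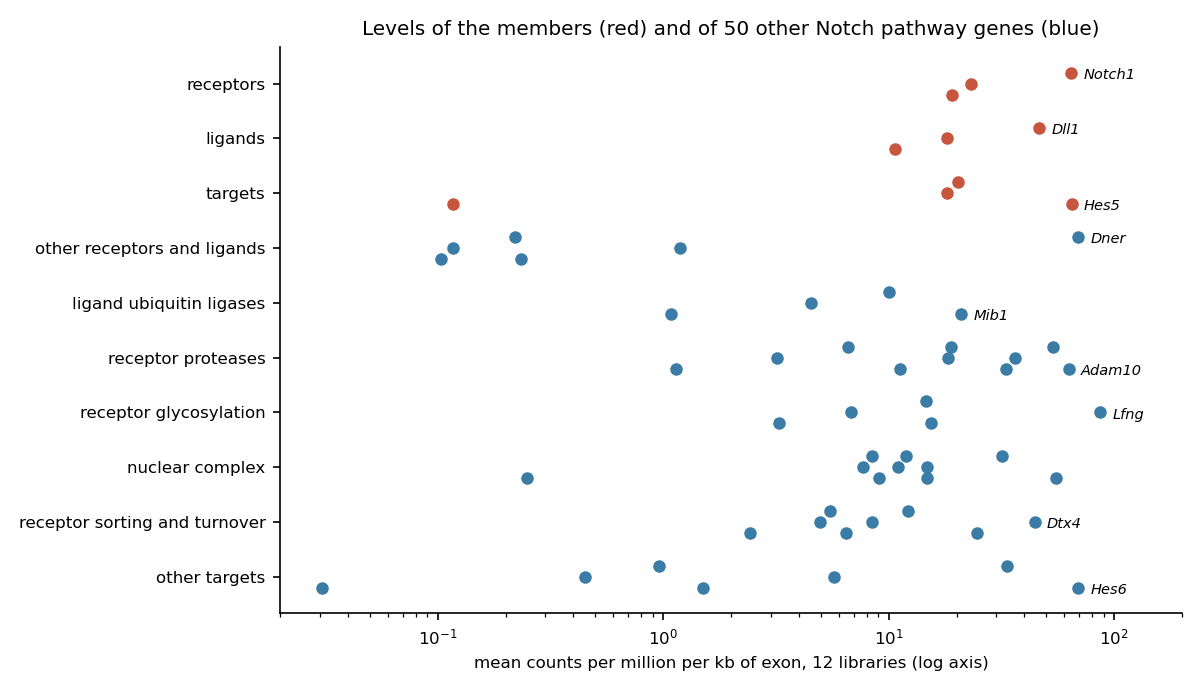
Mean level over the 12 libraries in CPM per kb of exon (x axis, log scale) of the 10 members (red) and of 50 other genes of the pathway (blue), by role (y axis), with the highest gene named for most roles. Lfng stands at 86.3 and Hes6 at 69.2, beside 64.8 for Hes5 and 64.1 for Notch1.

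The other 50 genes of the pathway, listed by role, likewise gave no call in edgeR in any comparison (0% of genes called in each), and none had an unadjusted p under 0.05 in the comparisons of 2 genotypes with all 12 libraries. In Kmt2a+/LSL against Kmt2a+/+, 30 were above and 20 below 0 with a median log2 fold change of 0.04, and without Kmt2a+/+ replicate 1, 16 were above and 34 below with a median of -0.11. In Nes-Cre+/- Kmt2a+/LSL against Nes-Cre+/- Kmt2a+/+, 15 were above and 35 below with a median of -0.05. DESeq2 without Kmt2a+/+ replicate 1 and Nes-Cre+/- Kmt2a+/LSL replicate 1, a fit chosen after the values were seen, called 3 of the 50 in Kmt2a+/LSL against Kmt2a+/+, where it called 2.95% of all genes. They were Spen, a corepressor of RBPJ, with an adjusted p of 0.0167, Dtx1, a Deltex ubiquitin ligase, with 0.0375, and Adam10 with 0.0454 (DESeq2). Dtx1 was also called in that fit for Nes-Cre+/- Kmt2a+/+ against Kmt2a+/+, with a DESeq2 adjusted p of 0.027 where 0.884% of genes were called. For each of these the adjusted p reached 1.0 under other alternatives.

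Among other receptors and ligands, Dner, a ligand-like neuronal protein, was the highest at 69.4 CPM per kb. The remaining 5 reached at most 1.19 CPM per kb, among them Dll4, which had the smallest p for any difference among the genotypes in this group (edgeR, unadjusted p = 0.236, adjusted p of 1.0). Mib1, the ubiquitin ligase that lets ligands be taken up and so signal, led its group at 21.0 CPM per kb, and Neurl1b had its smallest p (unadjusted 0.384).

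The proteases that cleave the receptor were all expressed. Adam10, which makes the first cut after ligand binding, stood highest at 62.8 CPM per kb. It had 556 CPM in Kmt2a+/+ replicate 1 and 232 to 349 CPM in the others, with 46.0% GC. The γ-secretase gene Aph1c had the smallest p of this group (unadjusted 0.611). Lfng, the Fringe enzyme that tunes which ligand a receptor answers to, was the highest of the glycosylation genes at 86.3 CPM per kb and had 24.7 CPM in Kmt2a+/+ replicate 1 against 142 to 320 CPM elsewhere, with 59.2% GC. Pofut1, which adds the fucose that Lfng extends, had the smallest p of this group (unadjusted 0.562).

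In the nuclear complex, Rbpj, named for its role and not by the rule, stood at 8.455 CPM per kb, and Maml3, one of the coactivators that join it, had the smallest p (unadjusted 0.394). Among the genes of receptor sorting and turnover, Dtx4, a ubiquitin ligase of the Deltex family, was highest at 44.4 CPM per kb, and Numb, an inhibitor of Notch handed to one daughter cell at division, had the smallest p (unadjusted 0.633). Of the other targets, Hes6, which promotes neuronal differentiation, stood at 69.2 CPM per kb. Hes3 had the smallest p of these (unadjusted 0.49) at a level of 0.0595 to 1.545 CPM.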

How the data were processed

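The authors pseudoaligned the reads with kallisto 0.48.0 to the GRCm38 transcriptome and summed transcripts to genes with tximport; their deposited table gives these estimated counts as whole numbers for 12 libraries, matched to samples by the number in the labels. Count tests were run on the values unchanged. Sources used here do not state the strand handling. The 10 members, the pathway and marker lists and the tests were chosen with earlier results of these data known.

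The 17076 genes that had over 10 counts summed across libraries, and any in 2 or more of them, were fitted with edgeR 4.0.16 (quasi-likelihood F-test, TMM, genotype as the only term, all 12 libraries), with Benjamini-Hochberg adjustment over all genes and a threshold of 0.05. The study's methods name DESeq2, a further correction of its values with fdrtool, and 3 of the genotypes. As separate alternatives, DESeq2 was run on all 12 libraries and edgeR on the 9 libraries of those 3 genotypes. The fdrtool step was not run, nor was DESeq2 on these 9 libraries. Levels are TMM-scaled CPM, with a prior count of 2 on the log2 scale for the exact tests and correlations. The fits were tested on simulated data with less spread than the real libraries and without an outlying library. That test therefore does not show how the fits perform on these libraries. The common biological coefficient of variation in the real fit was 0.368. Tools were R 4.3.3, limma 3.58.1 and DESeq2 1.42.0. Named genes were all members, Kmt2a, the highest gene per kb and the gene of smallest p in each pathway group, the most alike gene of each member, and marker genes. Intervals and floors cover counting error only. Some genes that this rule names are not reported here.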

Additional observations from a re-analysis of the deposited data

Results flagged for a closer look

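In 3 members the libraries lay on opposite sides without and with Cre: every Kmt2a+/LSL library lay above the mean of Kmt2a+/+ and every Nes-Cre+/- Kmt2a+/LSL library lay below the mean of Nes-Cre+/- Kmt2a+/+ (log2 CPM). They were Notch1, Notch3 and Dll1. The difference between both effects, tested in edgeR as an interaction, was -0.23 ± 0.49 (SE) for Notch1, -0.64 ± 0.79 for Notch3 and -0.45 ± 0.56 for Dll1, with unadjusted p of 0.656, 0.432 and 0.442 and an adjusted p of 1.0 for each; 0 members were called, as were 0% of genes. The mean of Kmt2a+/+ holds replicate 1, which is the lowest library for all 3. Without it the differences were 0.15, -0.15 and -0.05.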

How the results depend on the processing

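Of 144 recounts of called members, 142 gave 0 as in the fit of all 12 libraries. The settings were DESeq2-style size factors, DESeq2, limma-voom, no filter, a stricter filter, the replicate number as a block, fits of 9 libraries (without the genotype of Cre alone) and of 6, each library left out and, as later additions with the values known, GC content as an offset and fits without the 2 libraries named next. The exceptions, both chosen after seeing the data, were DESeq2 without Kmt2a+/+ replicate 1 and DESeq2 without that library and Nes-Cre+/- Kmt2a+/LSL replicate 1, each with 1 member (Notch3) for any difference among the genotypes. Of 1205 recomputed log2 fold changes, none of which passed a threshold, 1037 kept their sign and 168 did not, 141 of them in comparisons with Kmt2a+/+ or in the difference of effects. The causes were not tested, and the depth of Heyl, at most 1.05 CPM, limits its values. The values that follow are only those whose sign turned, chosen for that; members not named under a setting kept their sign from the fit of all 12 libraries or, as Heyl under the stricter filter, had no value there. The ranges over left-out libraries are likewise those that crossed 0.

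In Kmt2a+/LSL against Kmt2a+/+, Notch1 (0.01) was -0.02 with DESeq2-style size factors and with DESeq2, -0.00 with at least 10 counts in every library and with 9 libraries, and -0.01 with 6. Limma-voom with sample weights gave Notch1 -0.30, Notch3 -0.25, Dll1 -0.33 and Hey1 -0.19. The GC offset gave Notch1 -0.18, Dll1 -0.02, Hes1 -0.68, Hes5 0.15 and Hey1 -0.05. With the replicate block as well it gave Notch1 -0.18, Dll1 -0.01, Dll3 0.00, Hes1 -0.35, Hes5 0.36 and Hey1 -0.06. With 2 libraries left out, Notch1 was -0.37, Notch3 -0.32, Dll1 -0.31 and Hey1 -0.13. DESeq2 gave -0.38, -0.33, -0.32 and -0.14 for these genes without Kmt2a+/+ replicate 1 and without both libraries.

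In Nes-Cre+/- Kmt2a+/LSL against Kmt2a+/LSL, the GC offset gave Notch1 0.01 and Heyl 0.01 (with the block, Notch1 0.01), limma-voom gave Dll3 0.03, and 2 libraries left out gave Dll3 0.17 and Hes1 -0.03 (DESeq2: Notch1 0.00, Dll3 0.19, Hes1 -0.01). Against Nes-Cre+/- Kmt2a+/+, Dll3 was 0.05 with 2 libraries left out (DESeq2: 0.08) and Heyl 0.05 with the GC offset.

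In Nes-Cre+/- Kmt2a+/+ against Kmt2a+/+, limma-voom gave Notch1 -0.11, Notch3 -0.32, Dll1 -0.08, Dll3 -0.58, Jag1 0.17, Hes5 -0.12 and Hey1 -0.01. The GC offset gave Notch1 -0.07, Notch3 -0.03 and Hes1 -0.78, and with the block -0.07, -0.01 and -0.50. With 2 libraries left out, Notch1 was -0.23, Notch3 -0.46, Dll1 -0.12, Dll3 -0.46, Jag1 0.08, Hes5 -0.24 and Hey1 -0.02. DESeq2 without Kmt2a+/+ replicate 1 gave -0.23, -0.46, -0.13, -0.47, 0.08, -0.24 and -0.02, and without both libraries -0.24, -0.47, -0.13, -0.47, 0.08, -0.24 and -0.02.

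In the difference of effects, limma-voom gave Notch1 0.09, Notch2 0.11, Dll1 0.01, Dll3 0.61, Jag1 -0.04 and Hes5 0.36. The GC offset gave Notch1 0.08, Notch2 0.20 and Hes1 0.94, and with the block 0.08, 0.20 and 0.59. With 2 libraries left out, Notch1 was 0.21, Notch2 0.18, Dll1 0.05, Dll3 0.63, Jag1 -0.07 and Hes5 0.56. DESeq2 without Kmt2a+/+ replicate 1 gave Notch1 0.17, Notch2 0.16, Dll3 0.33 and Hes5 0.30, and without both libraries Notch1 0.24, Notch2 0.21, Notch3 0.03, Dll1 0.08, Dll3 0.66, Jag1 -0.05 and Hes5 0.59.

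Leaving out each library in turn moved Kmt2a+/LSL against Kmt2a+/+ from -0.37 to 0.30 for Notch1, -0.52 to 0.01 for Notch2, -0.32 to 0.53 for Notch3, -0.31 to 0.47 for Dll1, -0.58 to 0.52 for Dll3, -0.02 to 0.28 for Jag1, -0.07 to 0.34 for Hes1, -0.58 to 0.90 for Hes5 and -0.13 to 0.40 for Hey1. Nes-Cre+/- Kmt2a+/LSL against Kmt2a+/LSL moved from -0.18 to 0.00 for Notch1, -0.39 to 0.23 for Dll3, -0.12 to 0.24 for Hes1, -0.21 to 0.34 for Hes5 and -0.70 to 0.39 for Heyl. Against Nes-Cre+/- Kmt2a+/+ it moved from -0.52 to 0.07 for Dll3 and -0.70 to 0.39 for Heyl. Nes-Cre+/- Kmt2a+/+ against Kmt2a+/+ moved from -0.23 to 0.44 for Notch1, -0.32 to 0.22 for Notch2, -0.46 to 0.40 for Notch3, -0.12 to 0.67 for Dll1, -0.46 to 0.64 for Dll3, -0.19 to 0.08 for Jag1, -0.14 to 0.27 for Hes1, -0.24 to 1.24 for Hes5 and -0.02 to 0.52 for Hey1. The difference of effects moved from -0.52 to 0.15 for Notch1, -0.39 to 0.13 for Notch2, -0.78 to 0.30 for Dll3, -0.24 to 0.17 for Hes1 and -1.20 to 0.27 for Hes5.

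Replicate numbers are shared by the genotypes, but no label says what a number marks. Deviations from the genotype means correlated at -0.129 to 0.556 (mean 0.13) over the 18 same-numbered pairs of libraries. Over the 36 other pairs the mean was -0.0616, and 10 of 12 libraries correlated best with their own number on average. Some structure shared by number is therefore possible. As its meaning is not stated, the main fit did not pair libraries by number, and the replicate block was run as an alternative. With the replicate block, 0 members were called in any comparison, and the signs of 4 values changed: Dll3 (0.19) and Hes5 (0.48) in Kmt2a+/LSL against Kmt2a+/+, Hes5 (-0.01) in Nes-Cre+/- Kmt2a+/LSL against Kmt2a+/LSL, and Notch2 (0.02) in Nes-Cre+/- Kmt2a+/+ against Kmt2a+/+.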
